A study of Rattus norvegicus and Mus musculus with 61 samples.

Results

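The tissue inhibitors of metalloproteinases (the Timp genes) and the matrix metalloproteinases (the Mmp genes) were followed in injured cortex of mouse and rat by short oligonucleotide arrays. The 9 genes are Timp1, Timp2, Timp3, Mmp2, Mmp3, Mmp9, Mmp12, Mmp14 and Adamts1, and every probe set annotated with 1 of these symbols was taken, whatever its values. That gave 15 of 12422 mouse probe sets for 9 of 8251 genes, and 10 of 8740 rat probe sets for 8 of 4736 genes. Adamts1 was represented only on the mouse array. In mouse, 6 of the 15 probe sets, for 6 genes, reached the pooled 40th percentile of signal in at least 3 arrays, against all 10 in rat.

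Mouse samples were pools of 3 male C57BL/6 animals. Each gave a 4 mm disk of parieto-occipital cortex. A pneumatic impactor had struck the cortex at 6 m/s to a depth of 1.5 mm under isoflurane, and 3 arrays were made at 4, 8, 24 and 72 h, against 2 sham-operated arrays at each time and 2 naive arrays. Rat samples were 7 mm disks of the same region from 1 male Sprague-Dawley animal each. Rats under pentobarbital received a fluid percussion pulse of 2.5 atm, with 5 arrays at 30 min and 3 each at 4, 8, 24 and 72 h and 21 d. The sham-operated rats gave 4 arrays at 30 min, 4 at 4 h and 2 at each later time, and 3 rats were naive. The labels give no transgene and no drug beyond the anaesthetic, and they do not say whether the mouse sham arrays of a time, whose titles share the number 1, came from separate pools. P-values therefore measure the spread between arrays. The injured disk held the contusion, and in these bulk samples a change in the number of cells of a type and a change in RNA per cell cannot be told apart.

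Matrix metalloproteinases are zinc-dependent proteases that are made as inactive precursors and, once activated, cut collagens, laminins, proteoglycans and other proteins of the extracellular matrix. Timp proteins bind the active site of these enzymes and block them, and the balance of inhibitor and enzyme is studied after brain injury because the enzymes can open the basal lamina of brain vessels and because glia and infiltrating leukocytes produce them. Timp1 and several Mmp genes are known targets of the Fos and Jun transcription factors (AP-1), and Timp3 differs from the other inhibitors in binding to the matrix.

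Rat promoters are shown for the 3 genes called in mouse, to let their shared and differing AP-1 letters be seen. Of these, Mmp3 and Mmp12 were not called in rat. RefSeq windows of 300 bases (250 before the transcription start and 50 after it, rat build GRCr8) were found for 6 of the 9 genes, and 3 are printed on the strand of the gene, 5′ to 3′. Timp1 lies at chrX:3771073-3771372 on the minus strand, Mmp3 at chr8:12925031-12925330 and Mmp12 at chr8:12866402-12866701, both on the plus strand. The RefSeq Timp1 gene spans chrX:3766509-3772578, so the Timp1 window sits at a start inside the gene. Its motif distances are counted from that start. Capitals mark the AP-1 consensus TGANTCA, the AP-1 variant TGAGTAA, the Ets-type letters AGGAAG and the TATA letters TATAAA, each searched on both strands. The windows of Timp2 and Timp3, which were called in rat, are not printed and hold none of these letters.
Timp1: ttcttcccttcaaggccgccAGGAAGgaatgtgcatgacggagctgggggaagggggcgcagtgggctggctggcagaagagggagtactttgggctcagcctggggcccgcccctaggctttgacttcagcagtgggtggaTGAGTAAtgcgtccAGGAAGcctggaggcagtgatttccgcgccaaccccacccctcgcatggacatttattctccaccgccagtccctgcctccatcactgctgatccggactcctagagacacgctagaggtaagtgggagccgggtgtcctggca
Mmp3: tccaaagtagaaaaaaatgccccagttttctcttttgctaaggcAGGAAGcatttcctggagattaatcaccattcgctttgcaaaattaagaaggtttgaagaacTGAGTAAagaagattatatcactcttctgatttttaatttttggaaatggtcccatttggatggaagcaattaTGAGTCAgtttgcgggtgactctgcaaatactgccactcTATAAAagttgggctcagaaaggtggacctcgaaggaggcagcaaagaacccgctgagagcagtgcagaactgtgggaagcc
Mmp12: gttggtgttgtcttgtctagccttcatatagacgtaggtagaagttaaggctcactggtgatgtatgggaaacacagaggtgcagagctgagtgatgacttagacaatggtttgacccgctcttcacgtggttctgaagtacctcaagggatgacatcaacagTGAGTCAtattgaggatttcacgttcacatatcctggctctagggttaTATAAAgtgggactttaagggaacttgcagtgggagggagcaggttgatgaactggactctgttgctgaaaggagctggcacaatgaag
The consensus TGANTCA began 71 bases before the start in Mmp3 and 87 bases before it in Mmp12, as TGAGTCA in both, and was not in the Timp1, Timp2, Timp3 or Adamts1 windows. It was in 7.33% of all 33469 rat promoter windows of this length. The variant TGAGTAA began 108 bases before the start in Timp1 and 144 bases before it in Mmp3, and was in 2.9% of all windows. AGGAAG occurred in Timp1 (230 and 94 bases before the start) and Mmp3 (206 bases), as in 34.5% of windows. TATAAA began 32 bases before the start in Mmp3, 39 in Mmp12 and 70 in Adamts1, and was in 14.2% of windows. The variant TGAGTAA was added after the windows had been seen. A match of letters is a description and does not show that a factor binds there.

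Arrays had a median signal of 286 to 343 (mouse) or 231 to 409.8 (rat). The median correlation of an array with the others of its species was at least 0.941 for mouse arrays. In rat, 4 arrays had the lowest values, starting at 0.608, and the remaining 35 had 0.864 to 0.943. These were injury 30 min replicate 5, sham 30 min replicate 3 and sham 4 h replicates 3 and 4. All rat 24 h arrays, injured and sham, had median signals of 399 to 409.8, above those of every other rat array. Neuronal markers, which define the labelled tissue, were present, with a summed signal of 26743 to 48650 in mouse and 6433 to 30225 in rat. Injured rat cortex at 72 h made the low end, with 6433 to 15619 against 26182 to 27084 in sham. Summed signal of the 6 pituitary marker genes was 18500 and 20730 in the mouse sham 4 h arrays and at most 2650 in the other mouse arrays. At 4 h 6 of 7 pituitary probe sets were called lower in injury minus sham. Every mouse 4 h difference from sham, and the change of the injury effect from 4 to 8 h, uses these sham arrays.

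Timp1, the secreted inhibitor that blocks most matrix metalloproteinases, was the member that rose at the most times in both species. In mouse its signal (probe set 101464_at) was 1863, 1366 and 2381 at 4 h after injury, 2478, 2431 and 3674 at 8 h, 7413, 6135 and 6579 at 24 h, and 4686, 4900 and 4945 at 72 h. In sham cortex it was 793 and 1182 at 4 h, 308 and 447 at 8 h, 1432 and 1095 at 24 h, and 1391 and 884 at 72 h, and naive cortex had 1110 and 1063. All injured arrays lay above the sham arrays of their time, the groups did not overlap at any of the 4 times, and 11 of the 12 injured arrays also lay above every uninjured array.

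The log2 difference of injury minus sham was 0.91 ± 0.26 (limma standard error, adjusted p = 0.226) at 4 h, 2.92 ± 0.26 (7.56-fold, adjusted p = 1.66e-05) at 8 h, 2.42 ± 0.26 (5.34-fold, adjusted p = 5.08e-05) at 24 h and 2.13 ± 0.26 (4.37-fold, adjusted p = 9.73e-05) at 72 h. The difference was largest at 8 h while the injured level was highest at 24 h, and the sham 8 h arrays were the lowest of all 22. With all uninjured mouse arrays as 1 control, the difference was 1.67 ± 0.35 (adjusted p = 0.00513) at 8 h, 2.92 ± 0.35 at 24 h and 2.45 ± 0.35 at 72 h. When only the compared groups were fitted, the calls at 8 h (adjusted p = 0.0672) and 24 h (adjusted p = 0.0556) were lost and that at 72 h was kept (adjusted p = 0.0476). The rise of the injury effect between 4 and 8 h was 2.01 ± 0.37 (adjusted p = 0.0419), and it uses the sham 4 h arrays with high pituitary signal. Against the common control it was 0.62 ± 0.43 (adjusted p = 0.653). That call was also lost without injury 4 h replicate 1 (2.02, adjusted p = 0.0598) or 2 (1.8, adjusted p = 0.0881), injury 8 h replicate 1 (2.10, adjusted p = 0.0659), 2 (2.11, adjusted p = 0.0513) or 3 (1.81, adjusted p = 0.0657), sham 4 h replicate 1c (1.72, adjusted p = 0.18) or sham 8 h replicate 1b (1.74, adjusted p = 0.191).

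Ordered by mean signal, mouse Timp1 was 6709 ± 649 (SD, n = 3) at 24 h after injury, 4844 ± 138 at 72 h, 2861 ± 704 at 8 h and 1870 ± 508 at 4 h. Uninjured cortex followed with 1264 ± 238 (n = 2) in sham 24 h, 1138 ± 358 in sham 72 h, 1086 ± 33.4 in naive, 988 ± 275 in sham 4 h and 378 ± 98.2 in sham 8 h. The mean ± SD ranges overlapped between injured cortex at 8 and 4 h, between injured cortex at 4 h and sham 24 h, and among the 4 highest uninjured groups, while injured cortex at 24 h stood clear of 72 h, and sham 8 h stood clear of the other groups. The other Timp1 probe set of the mouse array, 162107_r_at, was at or below the floor of 24.1 in 7 of 22 arrays, reached at most 102 and was not called at any time.

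In rat, Timp1 signal (rc_AI169327_at) was 797, 1041, 1121, 941 and 1130 at 30 min after injury, against 1129, 957, 1044 and 687 in sham. It was 4206, 5726 and 2140 at 4 h after injury against 1053, 733, 1487 and 682 in sham, and 8151, 7253 and 4913 at 8 h against 1151 and 1150. It was 7173, 3994 and 6182 at 24 h after injury against 828 and 1145 in sham, 2826, 4191 and 5284 at 72 h against 938 and 1448, and 729, 1327 and 951 at 21 d against 941.5 and 1332. The groups overlapped at 30 min and at 21 d and did not overlap at the 4 times between, and naive rats had 1167, 801 and 704.

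The log2 difference in rat was 0.09 at 30 min, 1.98 ± 0.31 at 4 h (3.96-fold, adjusted p = 0.00136), 2.53 ± 0.38 at 8 h (5.76-fold, adjusted p = 0.000459), 2.53 ± 0.38 at 24 h (5.77-fold, adjusted p = 0.000371), 1.77 ± 0.38 at 72 h (3.41-fold, adjusted p = 0.01) and -0.20 at 21 d. When only the compared groups were fitted, which leaves few degrees of freedom, the difference at each time was the same but was not called (adjusted p = 0.501 at 4 h, 0.0815 at 8 h, 0.205 at 24 h and 0.291 at 72 h). The 72 h call was also lost without injury 72 h replicate 3 (1.56, adjusted p = 0.0789) and without sham 72 h replicate 1 (1.46, adjusted p = 0.269). Without the 4 arrays that stand apart, the 4 h difference was 2.08 ± 0.36 (adjusted p = 0.00351). By mean signal the injured groups ran 6772 ± 1671 at 8 h, 5783 ± 1627 at 24 h, 4100 ± 1231 at 72 h and 4024 ± 1800 at 4 h (SD, n = 3 each), and each mean ± SD range overlapped the next. All other rat groups had means between 891 and 1193.

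The other rat Timp1 probe set, rc_AI169327_g_at, carries the same sequence name, so it is not an independent measure. Its signal was 2869, 4279 and 941 at 4 h after injury against 250, 88.6, 69.2 and 86.0 in sham, and 1798, 3038 and 4420 at 72 h against 58.8 and 57.7. Differences were 4.40 ± 0.68 at 4 h (adjusted p = 0.0011), 3.36 ± 0.81 at 8 h (adjusted p = 0.0629, sham 304 and 602), 5.43 ± 0.81 at 24 h (adjusted p = 0.000371) and 5.63 ± 0.81 at 72 h (adjusted p = 0.000111). The 24 h call was lost without sham 24 h replicate 1 (4.02, adjusted p = 0.093), and fitting the compared groups alone lost all 3 calls (adjusted p = 0.348 at 4 h, 0.257 at 24 h and 0.138 at 72 h). This probe set was at or below the floor of 32.3 in 5 of 39 arrays, so its folds start from a much lower uninjured signal than those of rc_AI169327_at.

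**Figure D1:**
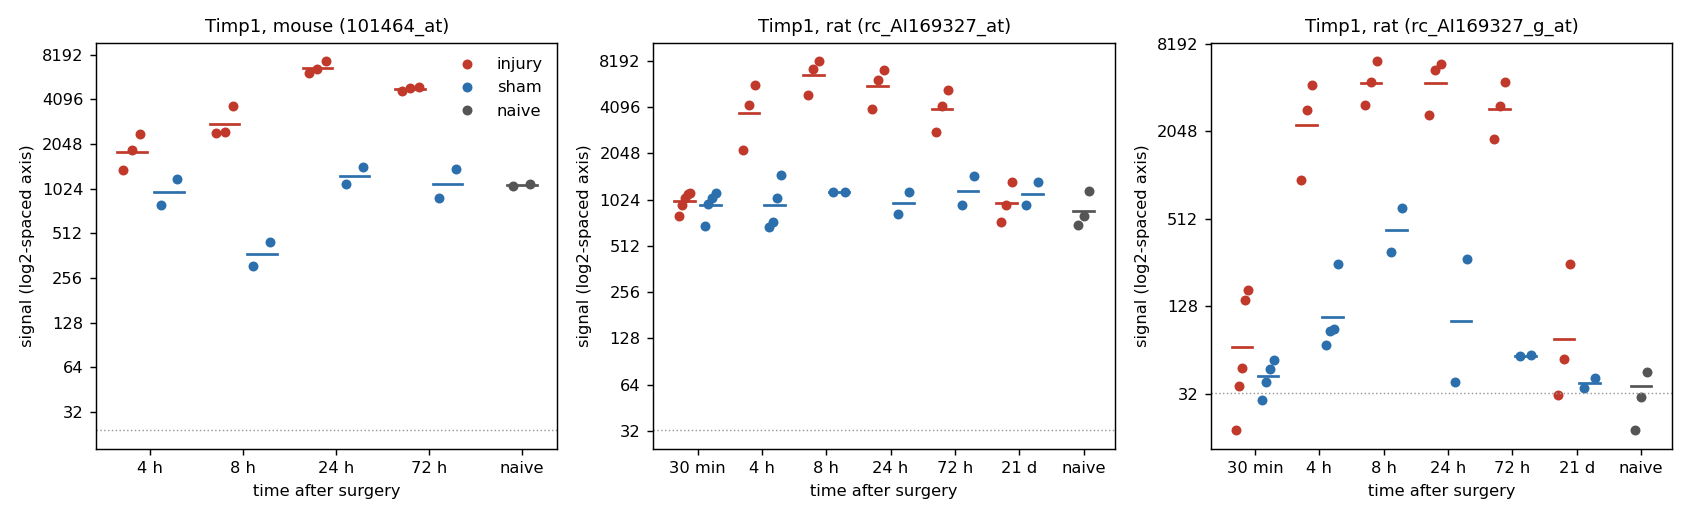
Timp1 signal in every array (log2-spaced vertical axis) by time after surgery, in mouse (101464_at) and rat (rc_AI169327_at and rc_AI169327_g_at). Red points are injured, blue sham and grey naive arrays, bars are means of floored log2 signal, and the dotted line is the floor (24.1 in mouse, 32.3 in rat). Injured arrays lie above the sham arrays of their time at all 4 mouse times and, in rat, from 4 h to 72 h, and the mouse sham 8 h arrays (308 and 447) are the lowest of that panel.

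Markers of other cell types changed at the times when Timp1 was called, in part with another course. In mouse, 1, 4, 5 and 9 of 16 myeloid probe sets were called higher at 4, 8, 24 and 72 h. The summed myeloid signal was 9240 to 10262 at 24 h after injury against 4151 to 4293 in sham, and 15688 to 23568 at 72 h against 3874 to 4529. The summed astrocyte signal was 15543 to 26012 at 24 h after injury against 5051 to 5427 in sham, and 22025 to 26796 at 72 h against 3521 to 5130, with 3 of 7 probe sets called higher at each time. The median myeloid and astrocyte sums of injured cortex were thus higher at 72 h than at 24 h, while Timp1 was lower at 72 h. The neutrophil sum of injured cortex was, like Timp1, lower at 72 h (1615 to 1760) than at 24 h (2042 to 2885). Sham cortex had 1479 to 1492 and 1407 to 1604 at these times. The median neutrophil sum of injured cortex was 2612 at 4 h, 2799 at 8 h and 2490 at 24 h, whereas Timp1 rose over these times. Sham cortex had neutrophil sums of 1847 to 2032 at 4 h and 1272 to 1708 at 8 h. At 72 h in mouse, 7 of 12 fibroblast probe sets (sum 10210 to 11798 after injury against 7034 to 8635 in sham) and 4 of 12 endothelial probe sets (6884 to 8039 against 3409 to 4130) were also called higher.

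In rat, all 3 red blood cell probe sets were called higher at 4 h (sum 36757 to 53796 after injury against 4242 to 23032 in sham). All 3 neutrophil probe sets were called higher at 8 h (3625 to 8193 against 227 to 289), and 5 of 12 myeloid probe sets at 72 h (8442 to 24777 against 2004 to 2173). The neutrophil sum after injury was 1033 to 2439 at 4 h, 1876 to 5071 at 24 h and 774 to 1569 at 72 h. Sham rats had 185 to 466, 203 to 277 and 132 to 254 at these times. Of 11 rat astrocyte probe sets 0 were called by limma at 4, 8 and 24 h, with 4, 2 and 2 at an unadjusted p below 0.05. At 72 h 1 was called higher, and their median difference was -0.07. The summed astrocyte signal was nonetheless higher at 72 h, with 15435 to 20107 after injury against 9474 to 11716 in sham. At 24 h it was 10760 to 12210 against 7276 to 8764, and at 4 and 8 h the sums of injured and sham rats overlapped. All 3 mouse probe sets of Ptprc, which marks leukocytes in general, were at or below the floor in the naive and sham 8 h arrays. The part of these cell types in the Timp1 result was not tested.

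Timp2, an inhibitor that together with Mmp14 also takes part in activating the Mmp2 precursor, changed in rat at 72 h. Its signal (S72594_s_at) was 4898, 4289 and 6303 at 72 h after injury against 2216 and 2190 in sham. The 3 injured arrays were the highest of all 39 rat arrays, and the other groups spanned 1134 to 3520. The log2 difference at 72 h was 1.21 ± 0.30 (2.31-fold, adjusted p = 0.031), and differences at the other rat times lay between -0.11 and 0.52. The call was lost on leaving out injury 72 h replicate 2 (1.33, adjusted p = 0.054) or 3 (1.06, adjusted p = 0.173) or sham 72 h replicate 1 (1.22, adjusted p = 0.264) or 2 (1.20, adjusted p = 0.211), and when only the compared groups were fitted (adjusted p = 0.266). With all uninjured rat arrays as control it was 1.37 ± 0.20 (adjusted p = 1.52e-05). At this time 2 of 9 neuronal probe sets were called lower (median -1.22 on the log2 scale) and 5 of 12 myeloid probe sets higher, and their part in the Timp2 and Timp3 results was not tested.

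In mouse, Timp2 signal (93507_at) was 1967, 1600 and 1865 at 72 h after injury against 1451 and 301 in sham. The injured arrays were the highest of the 22, and the 2 sham arrays of that time differed widely. The difference was 1.45 ± 0.53 (adjusted p = 0.112), and it was 2.58 (adjusted p = 0.00282) without sham 72 h replicate 1c, which leaves only the low sham array. The change of the injury effect between 24 and 72 h was also called without that array (2.93, adjusted p = 0.0188). The remaining mouse Timp2 probe sets, 160116_at and 161515_i_at, reached at most 147 and 79.6 and were not called.

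Timp3, the matrix-bound inhibitor that also blocks ADAM and ADAMTS proteases, was higher in rat at 72 h. Its signal (U27201_at) was 974, 805 and 469.5 at 72 h after injury against 159 and 222 in sham, and naive rats had 474, 350 and 336. The injured arrays lay above the sham arrays of their time, but those 2 sham arrays were the lowest of all 39. The highest were sham 30 min replicate 3 (1367) and sham 4 h replicate 4 (1148), which are among the 4 that stand apart. The difference was 1.93 ± 0.50 (3.81-fold, adjusted p = 0.0404), and against all uninjured rat arrays it was 0.78 ± 0.38 (adjusted p = 0.307). A fit of the compared groups alone also lost the call (adjusted p = 0.293). Leaving out any of the 5 arrays compared also lost the call: injury replicates 1 (1.71, adjusted p = 0.0604), 2 (1.85, adjusted p = 0.134) and 3 (2.24, adjusted p = 0.0529), and sham replicates 1 (1.69, adjusted p = 0.403) and 2 (2.17, adjusted p = 0.152).

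In mouse, Timp3 signal (160519_at) was 3503, 2094 and 2837 at 72 h after injury against 1635 and 1302 in sham. These groups did not overlap, with a difference of 0.91 ± 0.31 (adjusted p = 0.0817), whereas at 4, 8 and 24 h they overlapped (0.20, 0.09 and 0.51). At 24 h, leaving out injury replicate 2 (1528, the low array of 3) gave 0.90 (adjusted p = 0.0323).

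Mmp3, stromelysin-1, which degrades proteoglycans, laminin and fibronectin and activates other Mmp precursors, rose in mouse at 24 h. Its signal (98833_at) was 101, 83.0 and 118 at 4 h after injury, 94.9, 199 and 180 at 8 h, 250, 154 and 330 at 24 h, and 67.8, 82.2 and 66.9 at 72 h. Sham cortex had 44.6 and 58.5 at 4 h, 53.3 and 48.0 at 8 h, 64.0 and 12.8 at 24 h and 94.4 and 38.9 at 72 h, and naive cortex had 131 and 84.8. The groups did not overlap at 4, 8 and 24 h and overlapped at 72 h.

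The Mmp3 difference was 0.96 at 4 h, 1.57 ± 0.47 at 8 h (adjusted p = 0.0737), 2.57 ± 0.47 at 24 h (5.94-fold, adjusted p = 0.00369) and 0.25 at 72 h. Its 4 h value was taken against the sham 4 h arrays with high pituitary signal. The 24 h call was lost without sham 24 h replicate 1d, whose 12.8 was below the floor (1.87 ± 0.53, adjusted p = 0.099) and in a fit of the compared groups alone (adjusted p = 0.202), and it was 2.01 ± 0.38 (adjusted p = 0.00127) against all uninjured arrays. The 8 h difference passed without injury 8 h replicate 1 (1.91, adjusted p = 0.0477). Rat Mmp3 (X02601_at) ran from 101 to 503 over all 39 arrays, with 316, 277 and 320 at 8 h after injury against 151 and 162 in sham (0.96), and was not called at any time.

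Mmp12, macrophage metalloelastase, rose in mouse at 8 h. Its signal (95339_r_at) was 231, 149.7 and 205 at 4 h after injury, 335, 542 and 422 at 8 h, 825, 199 and 252 at 24 h, and 203, 283 and 319 at 72 h. Sham cortex had 128 and 105 at 4 h, 123 and 105 at 8 h, 139.5 and 90.9 at 24 h and 141 and 149 at 72 h, and naive cortex had 199 and 95.6. Injured arrays lay above the sham arrays of their time at all 4 times.

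The Mmp12 difference was 0.73 at 4 h, 1.90 ± 0.49 at 8 h (3.73-fold, adjusted p = 0.037), 1.62 ± 0.49 at 24 h (adjusted p = 0.0674) and 0.86 at 72 h. The 8 h call was lost on leaving out any of its 5 arrays: injury replicates 1 (2.07, adjusted p = 0.0533), 2 (1.72, adjusted p = 0.12) and 3 (1.90, adjusted p = 0.0758), and sham replicates 1b (2.01, adjusted p = 0.171) and 1c (1.79, adjusted p = 0.165). A fit of the compared groups alone lost it too (adjusted p = 0.118). The 24 h difference passed without injury 24 h replicate 2 (2.02, adjusted p = 0.0205). The other probe set, 95338_s_at, gave 1.77 ± 0.71 at 8 h (adjusted p = 0.2) and 1.55 ± 0.71 at 24 h (adjusted p = 0.263). In rat (X98517_at) Mmp12 was 158, 262 and 337 at 72 h after injury against 89.2 and 80.4 in sham (1.51 ± 0.45, adjusted p = 0.0785), and 1.81 (adjusted p = 0.0204) without injury 72 h replicate 1. Other uninjured rats overlapped these injured arrays, with 188 and 282 in sham 24 h and up to 261 in sham 4 h. Of all 20 injured rat arrays, 1 lay above every uninjured array.

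Mmp14, a membrane-anchored protease that activates the Mmp2 precursor, was not called in either species. In rat its signal (X83537_at) was 1304, 771 and 1045 at 24 h after injury against 405 and 639.5 in sham (1.0 ± 0.34, adjusted p = 0.409), and 775, 1239 and 1501 at 72 h against 514 and 756 (0.86 ± 0.34, adjusted p = 0.229). Injured and sham rat arrays did not overlap at these times, and against all uninjured rat arrays the differences were 1.14 at 24 h (adjusted p = 0.0018) and 1.30 at 72 h (adjusted p = 0.000271). All 24 h arrays, sham included, had a higher median signal than the other rat arrays, which the common control does not separate from injury at that time. At 4 h Mmp14 was 218, 204 and 419 after injury against 340.5, 519.5, 529.6 and 487 in sham (-0.80 ± 0.29, adjusted p = 0.0888). The value was -0.95 (adjusted p = 0.0256) without sham 4 h replicate 1, the lowest sham array. The sham arrays then left include replicates 3 and 4, which are among the 4 rat arrays that stand apart. In mouse (160118_at) Mmp14 was 1138, 1035 and 1948 at 72 h after injury against 939 and 1022 in sham (0.43 ± 0.21, adjusted p = 0.278).

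**Figure D2:**
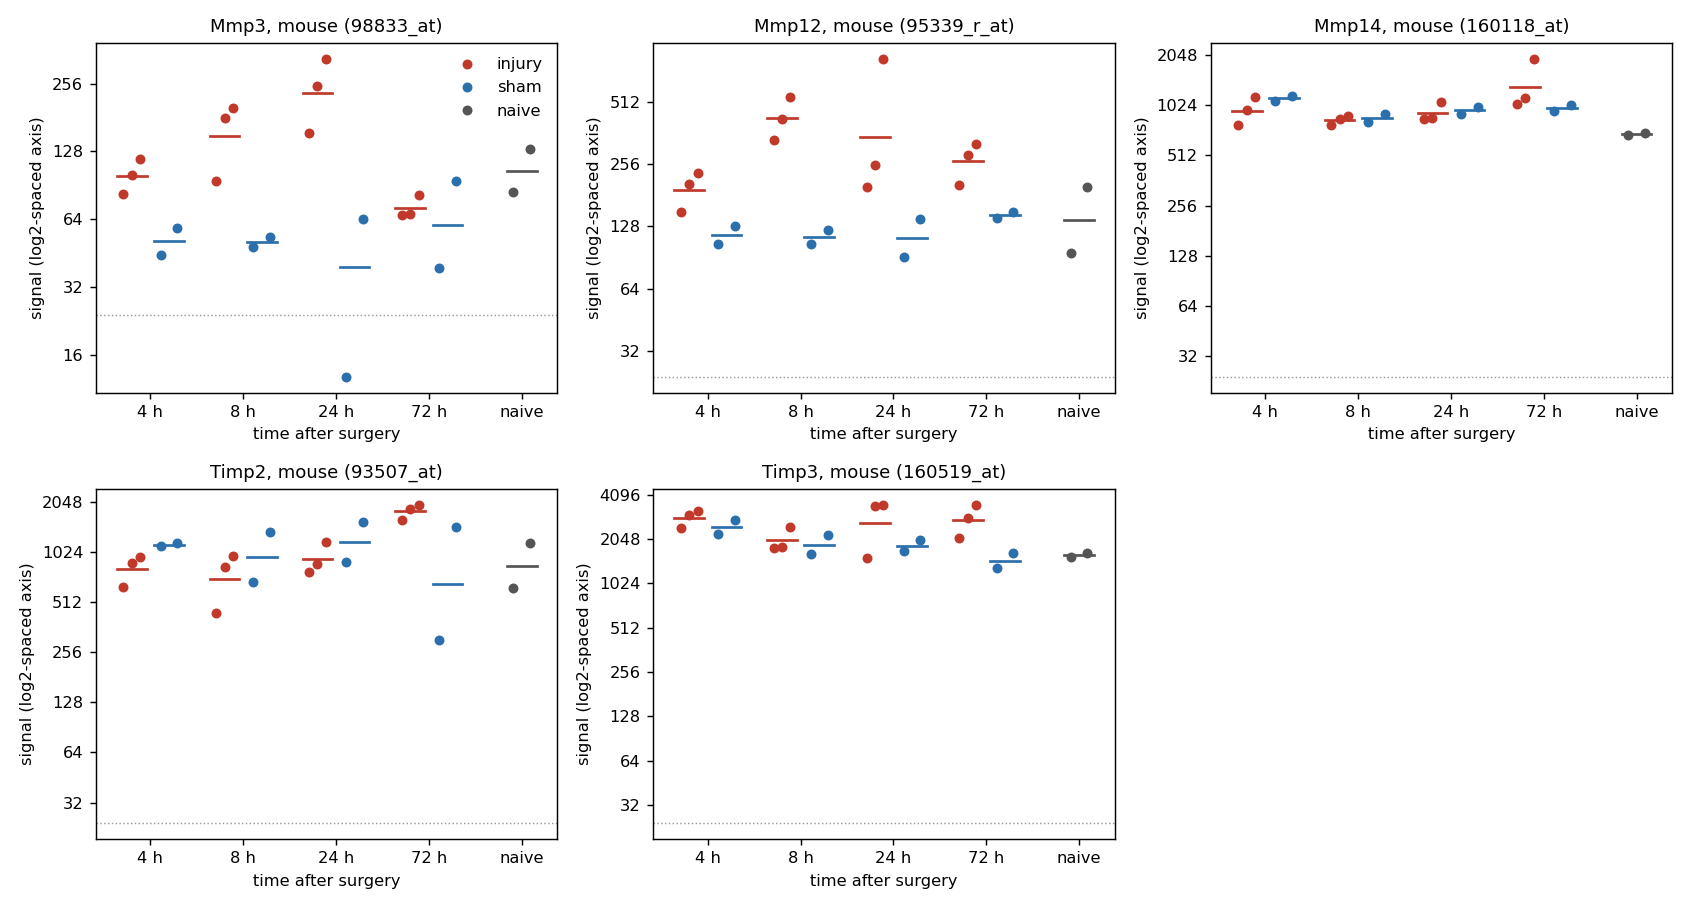
Signal of Mmp3, Mmp12, Mmp14, Timp2 and Timp3 in every mouse array (log2-spaced vertical axis) by time after surgery. Red points are injured, blue sham and grey naive arrays, bars are means of floored log2 signal, and the dotted line is the floor of 24.1. Mmp3 in injured cortex is highest at 24 h (154 to 330), and 1 sham 24 h array (12.8) lies below the floor.

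The gelatinases Mmp2 and Mmp9, which cut denatured collagen and basal lamina proteins, were not called at any time. In mouse, Mmp9 reached at most 79.8 and 81.4 on its 2 probe sets and Mmp2 at most 190.0 and 125, all under the 40th percentile of 194. The Mmp2 probe set 95663_at gave 1.56 ± 0.55 at 24 h (adjusted p = 0.123), with sham at 7.24 and 24.3 against a floor of 24.1. It gave 2.35 (adjusted p = 0.0013) without injury 24 h replicate 3. Without that array the injury effect at 72 h minus that at 24 h was also called, at -2.71 (adjusted p = 0.0334). The other Mmp2 probe set, 161509_at, which was never at the floor, went the other way at 24 h (-0.55 ± 0.38, adjusted p = 0.499). Its injured arrays (87.8 to 122) all lay below sham (155 and 162).

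Rat Mmp9 (U24441_at) was 731, 272 and 237 at 8 h after injury against 257 and 130 in sham (0.98 ± 0.93, adjusted p = 0.936), and 393, 117 and 681 at 24 h against 74.3 and 228 (1.28 ± 0.93, adjusted p = 1). These groups overlapped, and the arrays of each spread over more than the difference between them. Rat Mmp2 (X71466_at) was 211, 341 and 302 at 8 h after injury against 48.6 and 176 in sham (1.60 ± 0.40, adjusted p = 0.0748). The value was 2.52 (adjusted p = 0.00664) without sham 8 h replicate 2, and it was -0.064 against all uninjured rat arrays. The sham 8 h arrays were the lowest of the 39. The other rat Mmp2 probe set, U65656_at, gave 0.29 at 8 h.

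Adamts1, a secreted protease that cuts aggrecan and versican, was measured only in mouse (160606_r_at). It was at or below the floor in 11 of 22 arrays and reached at most 91.6. Its differences were 0.63, 0.55, 0.79 and 0.56 at 4, 8, 24 and 72 h, and none was called.

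**Figure D3:**
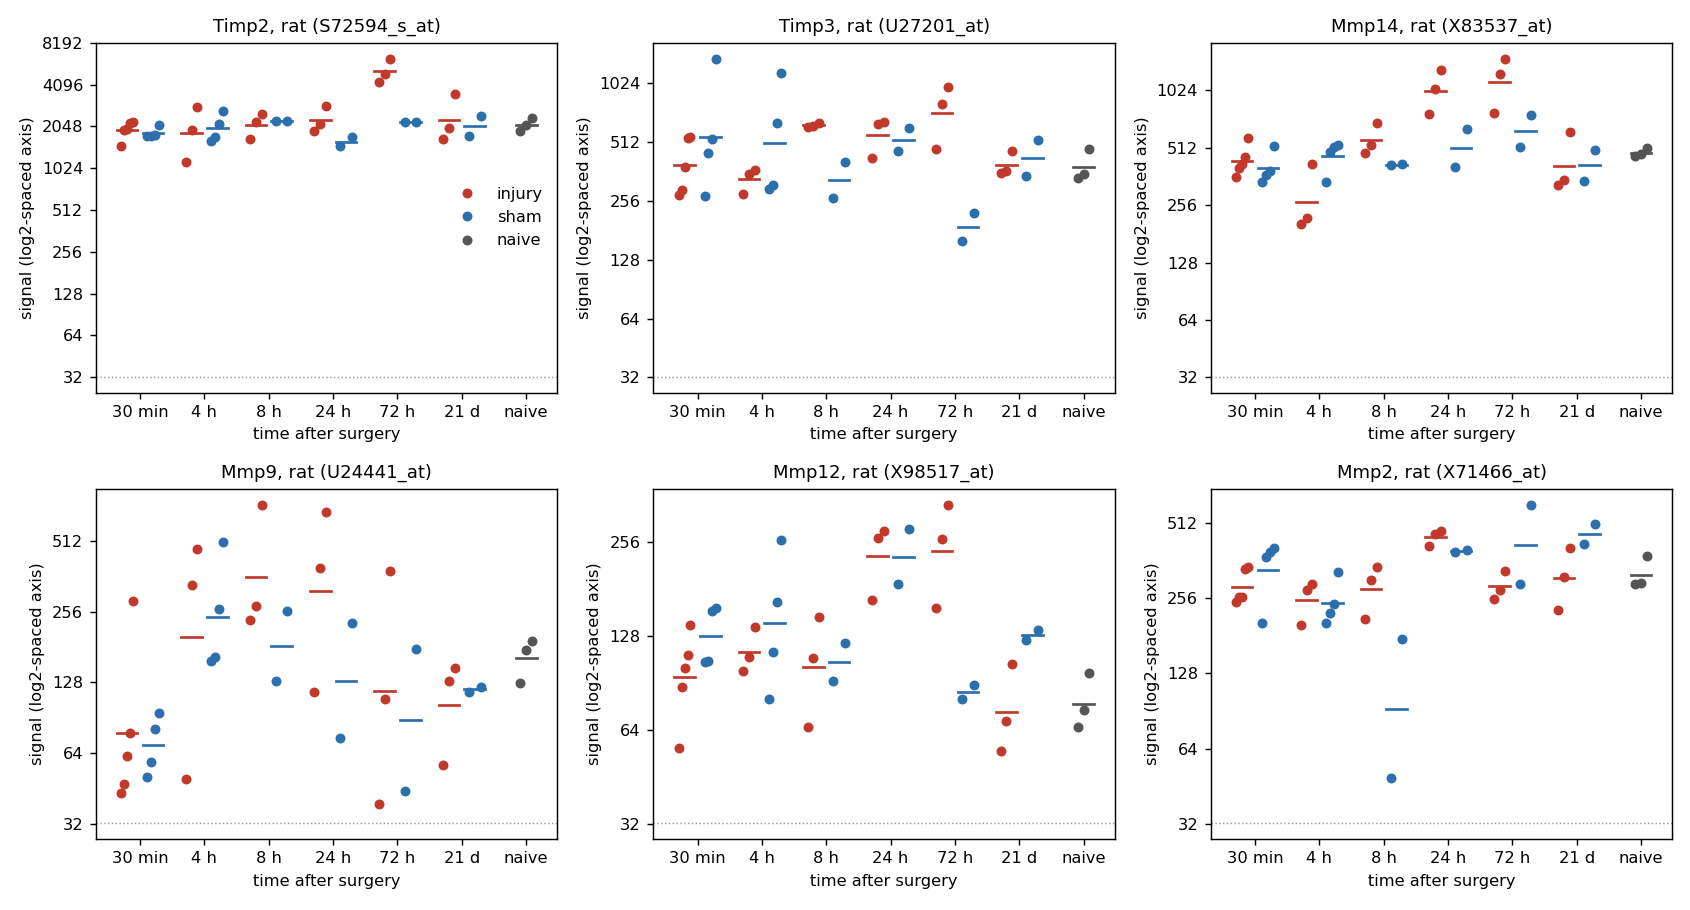
Signal of Timp2, Timp3, Mmp14, Mmp9, Mmp12 and Mmp2 in every rat array (log2-spaced vertical axis) by time after surgery. Red points are injured, blue sham and grey naive arrays, bars are means of floored log2 signal, and the dotted line is the floor of 32.3. Timp2 at 72 h after injury (4289 to 6303) stands above all other rat arrays, and Timp3 in sham 72 h (159 and 222) and Mmp2 in sham 8 h (48.6 and 176) are the lowest of their panels.

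Set against all probe sets, the members' calls in mouse were as follows. At 4 h limma called 0 of 15 member probe sets, with 1 at an unadjusted p below 0.05, where 0.386% of all probe sets were called higher and 0.177% lower. At 8 h 2 of 15 were called higher (2.87% of all higher, 1.85% lower), at 24 h 2 of 15 (3.63% and 2.1%) and at 72 h 1 of 15 (5.82% and 2.64%), and 0 were called lower. The median log2 difference of the 15 was 0.24 at 8 h, 0.51 at 24 h and 0.43 at 72 h, and that of all probe sets was -0.01, 0 and 0. The F test over the 4 times called Timp1 (101464_at, adjusted p = 7.4e-07), Mmp3 (adjusted p = 0.00409) and Mmp12 (95339_r_at, adjusted p = 0.0165), with 11.8% of all probe sets called.

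In rat, limma called 0 of 10 member probe sets at 30 min and at 21 d, with 0 at an unadjusted p below 0.05 at either time. Of all probe sets 0.0114% were called higher and 0.0114% lower at 30 min, and 0% either way at 21 d. At 4 h 2 of 10 were called higher (1.25% of all higher, 0.87% lower), at 8 h 1 of 10 (0.252% and 0.0343%), at 24 h 2 of 10 (0.275% and 0.0458%) and at 72 h 4 of 10 (1.61% and 0.32%), and 0 were called lower. The median of the 10 was 0.94 at 8 h, 0.59 at 24 h and 1.03 at 72 h, and that of all probe sets was 0.08, 0 and 0.12. At 4 h the median was -0.20 for the members and -0.21 for all probe sets. The F test over the 6 times called both Timp1 probe sets (adjusted p = 3.8e-07 and 3.7e-07) and no other member, with 1.72% of all called.

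**Figure D4:**
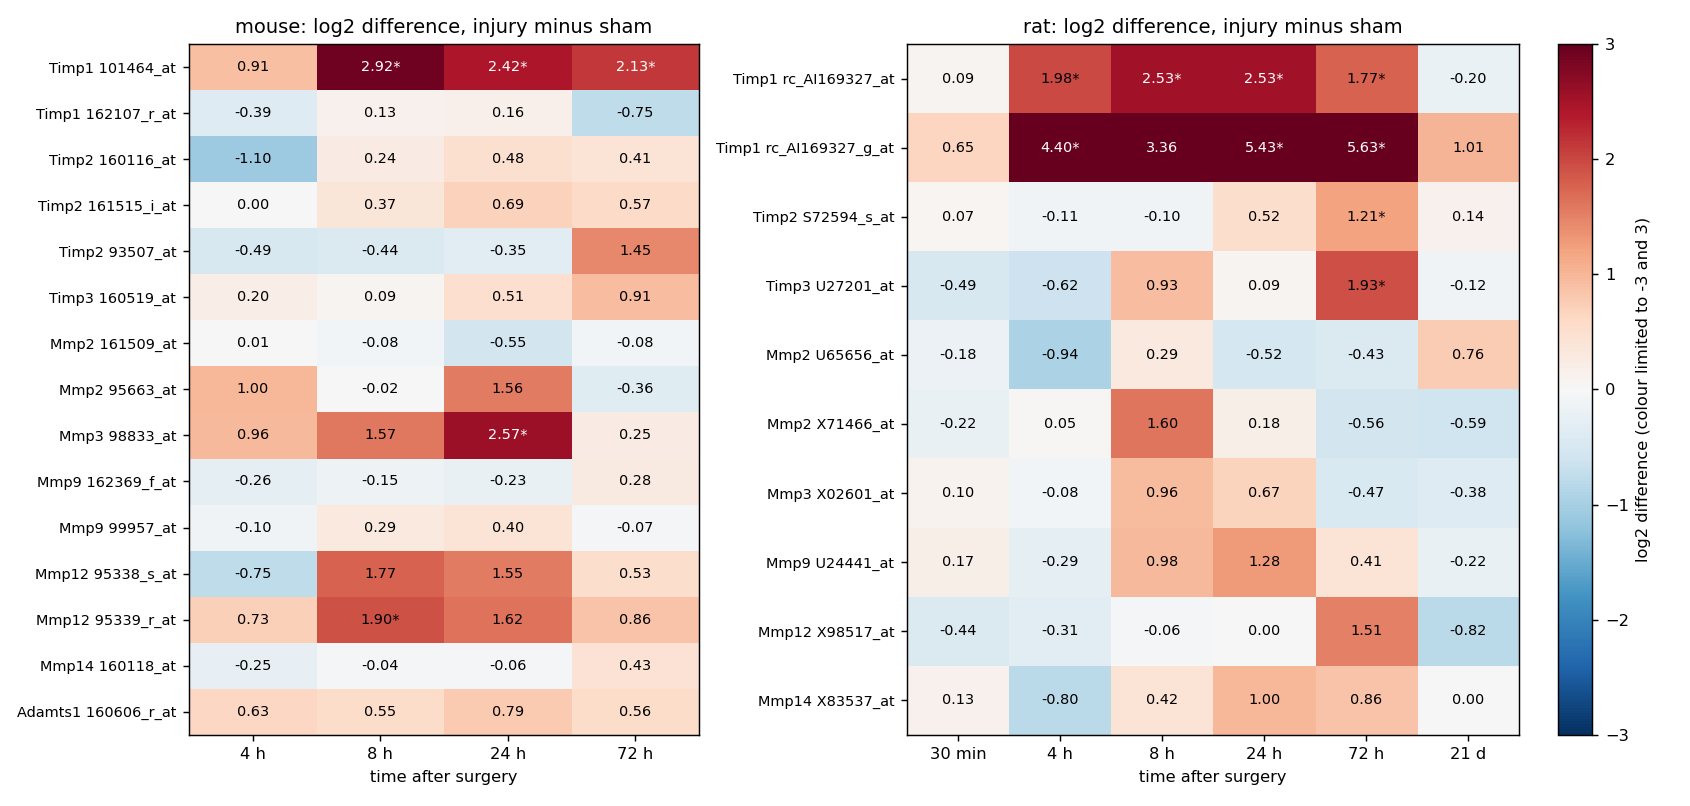
Log2 difference of injury minus sham for every member probe set (lines) at each time (columns), in mouse and rat. Red is higher and blue lower after injury, colours stop at -3 and 3, and an asterisk marks an adjusted p below 0.05. Asterisks fall on Timp1 at 3 mouse and 4 rat times, on mouse Mmp3 at 24 h and Mmp12 at 8 h, and on rat Timp2 and Timp3 at 72 h.

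Sham surgery against naive cortex gave 0 called members in either species, with 2 probe sets at an unadjusted p below 0.05 in each (0.0322% of all called in mouse and 0.0343% in rat). In mouse these were Mmp3 (-1.08 ± 0.41, adjusted p = 0.42) and Mmp14 (0.49 ± 0.18, adjusted p = 0.406), and in rat Mmp12 (0.74, adjusted p = 0.84) and Timp1 (rc_AI169327_g_at, 1.27, adjusted p = 0.84). Between neighbouring mouse times, Timp1 was the only member whose injury effect was called, from 4 to 8 h, where 0.217% of all probe sets were called. From 8 to 24 h 0 of 15 were called, with 0 at an unadjusted p below 0.05 (0.0403% of all called), and from 24 to 72 h 0 of 15, with 3 at an unadjusted p below 0.05 (0.217% of all called).

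Of the 30 other genes listed from the Timp, Mmp, ADAM and ADAMTS families and their inhibitors, 21 were measured in mouse by 22 probe sets and 11 in rat by 16. In mouse 0, 2, 4 and 6 of the 22 were called higher at 4, 8, 24 and 72 h, and 0 lower. Of all mouse probe sets 0.386%, 2.87%, 3.63% and 5.82% were called higher at these times, and 0.177%, 1.85%, 2.1% and 2.64% lower. A2m, the plasma protease inhibitor alpha-2-macroglobulin, was 1219 to 1489 at 72 h after injury against 60.1 to 111 in sham, with differences of 2.25, 3.23 and 4.07 at 8, 24 and 72 h. Adam8, a leukocyte membrane protease, was 599.7 to 1137 at 72 h against 39.3 to 141, with differences of 2.85, 3.62 and 3.56. Adam19 rose by 1.46 at 24 h and 1.22 at 72 h. Adam9 was called at 72 h (0.95), with 679.6 to 871 after injury against 280 to 564 in sham. Its injured arrays ranged from 541 to 952 over the 3 earlier times, and its other sham arrays from 539 to 726. Mmp13, a collagenase, was called at 72 h (1.35), with 63.6 to 99.3 after injury against 11.7 to 44.1 in sham, and was 74.1 to 122 at 24 h after injury against 43.7 to 60.3 (0.86, adjusted p = 0.262). Naive (39.8 to 75.1) and sham 4 h arrays (61.0 to 64.2) overlapped its injured 72 h arrays, and 1 sham 72 h array lay below the floor. For neither gene was the change of the injury effect from 24 to 72 h called (adjusted p = 0.637 for Adam9 and 0.843 for Mmp13).

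Adam12 was 78.7 to 192 at 24 h and 99.8 to 109 at 72 h after injury, against 7.51 to 39.4 and 19.6 to 21.4 in sham, with a difference of 2.21 at 24 h. At 72 h, where sham was at the floor, injured cortex was at least 4.30-fold higher. Naive cortex had 97.6 to 108, as high as injured cortex at 72 h. In rat, Mmp8, the neutrophil collagenase, was 68.5 to 109 at 4 h and 106 to 333 at 8 h after injury, against 18.9 to 52.3 and 5.77 to 24.8 in sham. Its difference was 1.29 at 4 h, and at 8 h, with sham at the floor, it was at least 5.13-fold higher. Uninjured rats reached 78.2 among naive and 53.3 to 96.5 in sham 21 d arrays, which overlapped the injured 4 h arrays, and no other listed rat gene was called. Mmp8 was thus 1 of 16 listed rat probe sets called higher at 4 h and at 8 h. Of all rat probe sets 1.25% and 0.252% were called higher at these times.

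Genes most like the called members by the correlation of group means (log2 signal) were taken as a description, since the groups share arrays with the tests above. Over 9 mouse groups, Timp1 was closest to C5ar1 (0.96), Rhoc (0.958) and Trim47 (0.952), Mmp3 to Pcp4l1 (0.916), Myl4 (0.902) and Coro1c (0.897), and Mmp12 to Ifit1 (0.96), Coro1c (0.959) and Bcl3 (0.955). Over 13 rat groups, Timp1 was closest to Gadd45a (0.975), Ccl2 (0.956) and Lcn2 (0.954), Timp2 to Grn (0.926), Fabp5 (0.914) and Fabp4 (0.895), and Timp3 to Rps24 (0.881), Gas6 (0.867) and Vom2r46 (0.855). Among the members themselves, the highest mouse values were 0.922 for Mmp9 with Mmp14 and 0.857 for Timp1 with Adamts1, where Mmp9 and Adamts1 lay near the floor, and 0.841 for Timp1 with Mmp12. The highest in rat was 0.687, for Timp2 with Mmp14.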

How the data were processed

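The values were deposited as 1 linear intensity per probe set and array, for Affymetrix mouse and rat arrays. The authors' software is not given in the sources used here, and the deposited intensities share a common scale between arrays. The arrays' own controls were dropped, 66 of the mouse and 59 of the rat probe sets. Genes were named from the platform annotation: 10833 mouse and 7006 rat probe sets had 1 symbol, 396 and 308 several, and 1193 and 1426 none. Values below the 10th percentile of all arrays of a species were raised to it (mouse 24.1, rat 32.3), and log2 was taken. A level is given in signal and a difference as log2 ± standard error.

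Group means were estimated separately for each species in limma 3.58.1 (R 4.3.3), allowing the prior variance to follow the mean signal, which left 13 residual degrees of freedom for mouse arrays and 26 for rat arrays. Contrasts were injury minus sham at each time, the mean of the sham groups minus naive, and neighbouring mouse injury effects. Adjusted p-values are Benjamini-Hochberg over all probe sets of a contrast, called below 0.05, and a gene was called where at least 1 probe set was. The fit was tested on simulated data. Named genes were the members, called genes of a list of related proteases and inhibitors, and the 3 genes with the closest group means to each called member. The members, lists and rules were chosen with earlier results of these data known. Alternatives changed scaling, filter, floor, probe set choice, variance model, blocks, control group and arrays. The number of arrays limits precision. Promoters are from RefSeq (GRCr8). Figures used matplotlib 3.10.9.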

Additional observations from a re-analysis of the deposited data

Results flagged for a closer look

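The rat sham 30 min array of replicate 3 lay far from the other 3 of its group for Timp2 (2093 against 1739 to 1783) and for Mmp2 (X71466_at, 204 against 372 to 406). Of 30 groups of 4 or 5 rat arrays looked at, 2 held such an array, and chance alone marks about 1 group in 20. The difference between mouse injury effects at 8 and 4 h for Timp1 was 2.01 (adjusted p = 0.0419).

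Some members lay on opposite sides of sham at different times, with every injured array above at one time and below at another, and the size of the gap on the log2 scale was not tested. It was 1.94 for mouse Timp2 (72 h minus 4 h). In rat it was 2.19 and 0.77 for Mmp2 (X71466_at, 8 h and 24 h minus 21 d), 1.42 and 1.14 for Mmp3 (8 h and 24 h minus 72 h) and 2.33 for Mmp12 (72 h minus 21 d). With so few arrays in each group, full separation either way can arise by chance. How often all probe sets showed such opposite sides was not counted, so these gaps do not show a reversal with time. With all arrays fitted, none of the differences from sham behind these gaps was called.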

How the results depend on the processing

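Counts are of member genes called. The share of all probe sets called was not taken for the alternatives, so a higher count under one of them does not show an excess for the members. Fitting only the compared groups left 0 at mouse 8 h, 24 h and 4 to 8 h and at rat 4, 8, 24 and 72 h, with fewer degrees of freedom. Averaging the mouse sham arrays gave 1 at 8 h and 0 for 4 to 8 h. Averaging the probe sets of each gene gave 0 at mouse 72 h and for 4 to 8 h, since it averages Timp1 with its dim probe set (0.69 at 72 h, adjusted p = 0.14). A fit without the variance trend gave 0 for 4 to 8 h. The low-value filter gave 2 at mouse 72 h. With all uninjured arrays as control the counts were 3 at mouse 72 h (Timp1, Mmp12, Mmp14), 2 at rat 24 h, 4 over rat times, and 0 for mouse 4 to 8 h. At rat 24 h this control does not separate injury from the higher median signal of all arrays of that time. Without the sham 4 h arrays in that control, the counts were 4 at mouse 72 h and 0 for 4 to 8 h. The control without sham 4 h arrays, and the common control for 4 to 8 h, were chosen after seeing the data. Without the 4 rat arrays that stand apart, 2 were called at 8 h (Timp1, Mmp2) and 2 over all rat times. Leaving out each array in turn gave 1 to 2 at mouse 8 h, 1 to 4 at 24 h, 1 to 2 at 72 h, 0 to 1 for 4 to 8 h and 0 to 1 for 24 to 72 h. In rat it gave 1 to 2 at 4 h, 1 to 2 at 8 h and 1 to 3 at 72 h. The single reversed value was rat Mmp2 (X71466_at) at 8 h, -0.064 against all uninjured arrays.

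Of the alternative values of named results, 536 kept their side of the threshold, 35 passed it and 49 lost it; the cause was not tested. Whether shared replicate numbers pair the arrays was not settled. Of 15 same-numbered rat pairs, 4 had correlated deviations over 0.1 (range -0.389 to 0.319). Where sham had 2 arrays, their deviations mirror each other, so the check cannot decide at those times. At 30 min the same-numbered pairs gave 0.319, 0.227, -0.389 and 0.318. The replicate block left mouse Timp1 at 2.90 at 8 h and changed no call. Signal near the floor limits Mmp9, Adamts1 and the Mmp2 probe set 95663_at in mouse. It also limits mouse Mmp3 at 24 h, where 1 sham array lay below the floor.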
